A study of Mus musculus with 6 samples.

Results

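The miRNAs described here come from imprinted genes other than the Dlk1-Dio3 domain: miR-335 from Mest, miR-296 and miR-298 from the Gnas/Nespas locus, miR-675 from H19 and miR-483 from Igf2. The members were chosen by name alone, both arms of each precursor where the array held a probe, detected or not. This gave 9 of the 690 mouse miRNA names on the array, from 5 precursors at 4 loci. Total RNA was measured on 1-colour miRNA microarrays in cells sorted from transgenic SMA-GFP mice, in which GFP follows the smooth muscle actin (SMA) gene, a marker of contractile cells. The transgene and the sort for cells lacking CD45 (blood cells) and CD31 (endothelium) were common to both groups. Cells with low GFP came from skin, described in the labels as fibroblast-like. Cells with high GFP came from wounds 7 days after injury, described as myofibroblasts. There were 3 preparations of each kind, hybridised to separate arrays and called here by their numbers in the array titles: skin 1, 2 and 5, and wound 3, 4 and 6. The labels used here state no strain, age or sex, and do not say that different mice were used. The p-values therefore cover only the variation among these 6 preparations, part of which may be technical. The effects of tissue and of GFP level cannot be told apart.

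An imprinted gene is transcribed from only the maternal or only the paternal chromosome, and many imprinted genes act on growth before birth and fall silent afterwards. Mest and Igf2 are expressed from the paternal copy and H19 from the maternal one, while Nespas is a paternally expressed antisense transcript of the Gnas locus. miR-335 is spliced out with an intron of Mest and is known from mesenchymal stem cells, miR-675 is cut from the first exon of H19, and miR-483 lies in an intron of Igf2. A miRNA represses messenger RNAs that pair with its seed, bases 2 to 8, and each hairpin precursor can yield a mature miRNA from its 5p and its 3p arm.

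The mature sequences on which the results turn are given 5′ to 3′ from RefSeq (GRCm38.p6), with the seed in capitals. All 9 members had a mature sequence of the same name in the RefSeq table.
miR-335-5p: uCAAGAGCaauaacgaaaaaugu
miR-335-3p: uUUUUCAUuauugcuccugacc
miR-296-5p: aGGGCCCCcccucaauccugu
miR-675-3p: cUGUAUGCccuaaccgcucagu
miR-675-5p: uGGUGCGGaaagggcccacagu
miR-483-3p: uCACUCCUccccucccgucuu
miR-483-5p: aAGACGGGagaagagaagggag

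No seed was shared between members or with any other name on the array that had a mature sequence in the RefSeq table (534 of 690 names). Their base composition differed: G and C made up 30.4% of miR-335-5p and 36.4% of miR-335-3p, and between 54.5% and 68.2% of the other 7. The precursors of miR-335 and miR-675 are shown. Only 1 arm of each gave signal on the arrays, as also for miR-296, whose precursor is not shown. Capitals mark the 5p and then the 3p mature arm.
Mir335, chr6:30741299-30741396, plus strand: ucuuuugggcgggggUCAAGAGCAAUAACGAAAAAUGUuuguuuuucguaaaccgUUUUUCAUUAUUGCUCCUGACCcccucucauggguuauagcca
Mir675, chr7:142577064-142577147, minus strand: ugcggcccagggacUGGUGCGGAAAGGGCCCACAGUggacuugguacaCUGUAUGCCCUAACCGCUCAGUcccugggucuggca

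These positions are RefSeq's on GRCm38.p6; the array files hold no coordinates. In that annotation Mir335 lies inside Mest, Mir675 inside H19 and Mir483 (chr7:142654924-142654996, minus strand) inside Igf2. Mir296 (chr2:174267047-174267125) and Mir298 (chr2:174267504-174267585), both on the minus strand, are 378 bases apart beside Gnasas1, the current symbol of Nespas.

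Signal was read as the scanner's background-subtracted processed signal in intensity units, averaged over the 20 spots of each name. For tests it was divided by each array's 75th percentile over probes well above background on all 6 arrays and taken to log2, with dim values raised to a floor of -5.30. The scaling percentile was 1487, 1244 and 1772 units on skin 1, 2 and 5, and 786, 1095 and 1136 on wound 3, 4 and 6. It did not overlap between groups, so the floor stands for a higher unscaled signal on every skin array than on any wound array. The median log2 difference of all tested miRNAs was 0.38 with this scaling, and between -0.19 and 0.0011 with the other scalings tried. The median local background lay between 49.0 and 56.0 on the 6 arrays. Testing required a probe well above background, meaning over 50% of its spots, on all 3 arrays of a group. Of the members 2 of 9 passed, mmu-miR-335-5p and mmu-miR-296-5p (the mouse prefix is left out elsewhere), against 222 of 690 names in all. Both passed through the wound arrays only, each being well above background on 1 of 3 skin arrays. Both were called higher in the wound cells by limma at a Benjamini-Hochberg adjusted p under 0.05 and 0 lower. Of all tested miRNAs 64.9% were called in either direction, 44.1% of them higher and 20.7% lower as shares of those tested, so 2 calls among 2 tested members do not set the members apart. The scaled values of both did not overlap between groups, as for 69.8% of all tested miRNAs. With no filter, 1 of 9 members was called, miR-335-5p (adjusted p = 8.6e-04 in limma), and 15.9% of all 690 names. With the scanner software's own detection as the filter, an alternative added after the data were seen, miR-675-3p and miR-483-5p were tested too and not called, and 53.5% of 260 names were called. In that fit miR-675-3p lay at the floor on all 6 arrays and could not have been called.

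Markers of other cell types were read on the same arrays. Of 12 names of epithelial miRNAs, the miR-200 family, miR-203 and miR-205, 10 were well above background on no array, and both tested names were lower in the wound cells. Their summed signal was 160 to 239 units on the skin arrays and -19.0 to -14.7 on the wound arrays. miR-31-5p, also counted as epithelial but not among these 12 names, went the other way. It was higher in the wound cells (log2 difference 1.27, SE 0.16, adjusted p = 0.0014 in limma). Of 5 blood cell names 0 were tested, 4 were well above background on no array, and their sum overlapped between groups (14.8 to 46.0 in skin, 23.5 to 30.05 in wound). Endothelial miR-126 (1 of 2 names tested, not called) summed to 64.3 to 72.5 in skin and 60.8 to 78.7 in wound, and all 5 striated muscle names were well above background on no array. The smooth muscle pair miR-143 and miR-145 gave 2 of 3 names tested, both higher in the wound cells, and all 5 names of the mesenchymal miR-199 and miR-214 were tested, 2 of them lower and 3 not called. Among those not called, miR-214-5p lay at the floor on every array and could not have been called. Without scaling, the sum of these 5 mesenchymal names was 29866 to 42606 units in skin and 13099 to 18543 in wound, without overlap; their median scaled log2 difference was -0.0019. The part of the epithelial, mesenchymal or smooth muscle miRNAs' shifts in the values below was not tested. In sorted bulk samples, fewer cells that express a miRNA and less of it per cell cannot be told apart.

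miR-335-5p, the Mest miRNA, was the tested member with the largest difference. Its processed signal was 31.8, 3.83 and 7.40 units on skin arrays 1, 2 and 5. On wound arrays 3, 4 and 6 it was 133, 135.5 and 152. All 3 wound values lay far above all 3 skin values, and among the skin arrays only skin 1 carried signal that the scanner software called detected. The mean was 14.3 ± 15.2 units in skin and 140.1 ± 10.1 in wound (SD, n = 3 each).

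After scaling, all 3 skin values of miR-335-5p lay at the floor of -5.30, and the wound values were -2.56, -3.02 and -2.91. The log2 difference was 2.47 (SE 0.13, adjusted p = 4.3e-05 in limma), a 5.56-fold rise with a 95% interval of 2.15 to 2.80 on the log2 scale. Because every skin value sat at the floor, no spread was measured in skin, the SE and the p are too small and the fold is compressed. The call held under each of 5 scalings, with differences of 1.97 to 2.47, and was lost with a floor 4 times as high (0.47, adjusted p = 0.053) and with normexp background correction (1.37, adjusted p = 0.12). With a floor 4 times as low it was 3.89, and with the scanner software's total signal per miRNA it was 4.33.

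The signal of miR-335-5p came from 1 of its 2 probes. Probe A_54_P2688 read 43.6 ± 7.5 units on skin 1 (SD over 10 spots), 8.83 ± 7.45 on skin 2 (9 spots) and 17.2 ± 5.7 on skin 5 (9 spots). On the wound arrays it read 249 ± 9.98 (9 spots), 249 ± 17.0 (9 spots) and 280.0 ± 20.2 (10 spots). All 3 wound values lay above all 3 skin values, and the skin arrays also differed among themselves by more than the spot SD. Probe A_54_P2687 read 20.0, -1.17 and -2.37 units in skin and 17.0, 22.2 and 23.3 in wound, was well above background on no array, and its skin 1 value lay within its wound range. Fitted on its own among 402 tested probes, of which 67.4% were called, A_54_P2688 differed by 3.29 (SE 0.15, adjusted p = 7e-06 in limma), a 9.80-fold rise. Here too skin 2 and 5 lay at the floor, so the fold is compressed and the SE and p are too small. Against skin 1 alone, the only skin array where this probe was well above background, the wound mean was 8.89-fold higher, a value with no test.

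**Figure D1:**
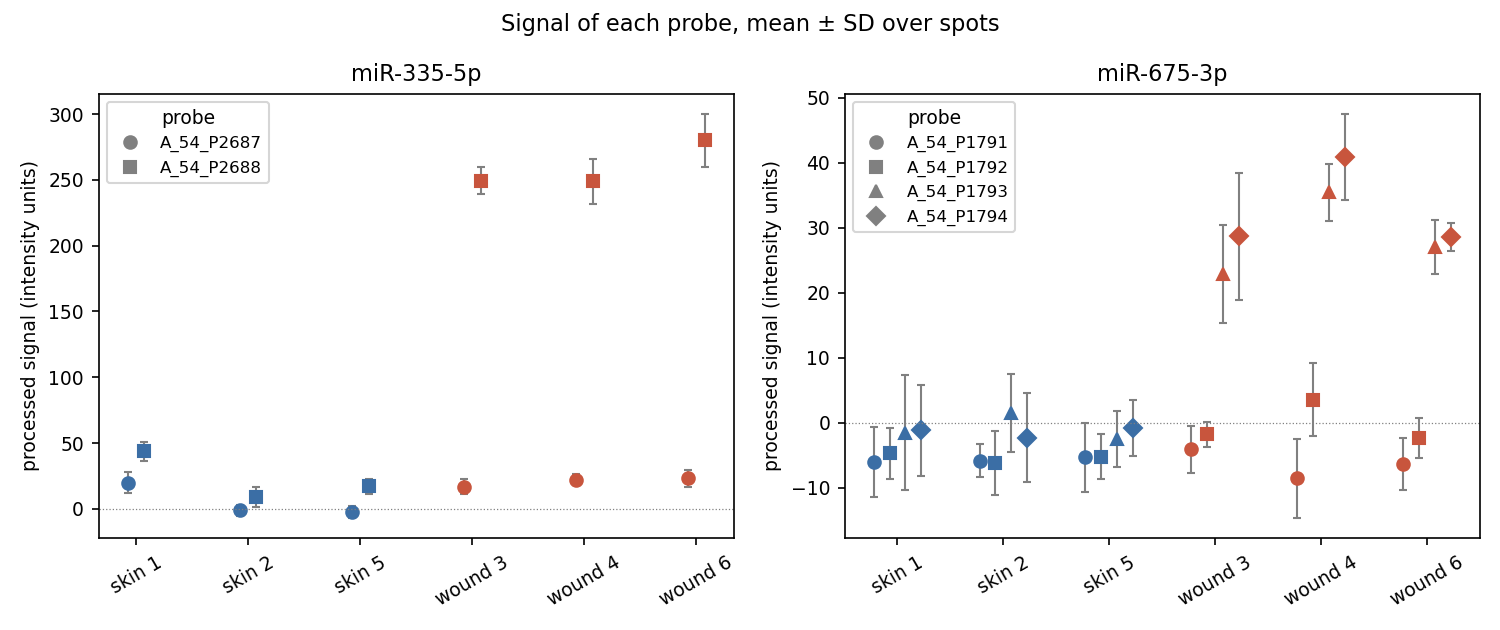
Processed signal in intensity units of each probe of miR-335-5p (left) and miR-675-3p (right) on the 6 arrays, with a symbol shape for each probe, blue for skin and red for wound; bars are the SD over the spots of a probe. For miR-335-5p only A_54_P2688 differs widely, at between 249 and 280.0 units on the wound arrays, and for miR-675-3p only A_54_P1793 and A_54_P1794 leave the range around 0.

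From the 3p side of the same hairpin, miR-335-3p was called detected on no array. Its signal was 4.79 to 7.21 units in skin and 7.23 to 9.98 in wound, with 0 of 60 skin spots and 1 of 60 wound spots well above background. The ranges did not overlap, but the highest skin and the lowest wound value differed by less than the SD over the spots of any of its probes on those arrays. Signals without scaling or floor lay above every skin array on every wound array for 4 of the 9 members (miR-335-5p, miR-335-3p, miR-296-5p and miR-675-3p) and for 17.7% of all 690 names.

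The level was also taken within each array, relative to the median of the 156 miRNAs well above background on all arrays. For miR-335-5p this was -2.62, -2.74 and -2.68 on the log2 scale on skin 1, 2 and 5, and -0.32, -0.93 and -0.59 on wound 3, 4 and 6. The skin values are the floor minus each array's median, so the size of this difference depends on the floor (0.068 with a floor 4 times as high, 3.48 with one 4 times as low). The groups differed by 2.07 without overlap, at the smallest p that 3 against 3 arrays allow (exact two-sided permutation test, p = 0.1). The arrays lay in 2 rows of 1 slide; the difference of miR-335-5p was 2.74 within the first row (2 skin, 1 wound array) and 2.34 within the second (1 skin, 2 wound arrays).

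miR-335-5p was set against the Dlk1-Dio3 domain, the imprinted miRNA cluster named in the series title. Of 38 tested names on the list used for that domain 34 were called higher and 0 lower, against 44.1% called higher of all 222 tested miRNAs. Their median log2 difference was 2.29 against 0.38 over all tested, and the title's miR-127-3p rose 9.42-fold (adjusted p = 3.8e-06 in limma). Some of these names, such as miR-495-3p (well above background on 0 skin arrays), passed the filter through the wound arrays only. On each skin array the median of the 38 names lay at the floor, and a name at the floor in skin cannot come out lower. Among the domain's names not called, miR-376a-5p lay at the floor on every array and could not have been called. The title names that domain, so its direction is not independent evidence. The list missed 3 array names of the domain that carry a letter: miR-299a-3p (log2 difference 0.41) and miR-299b-5p (2.90), both called higher, and miR-496a-3p, not tested. With them 36 of 40 tested names were called higher, and the domain's median and the differences of both tested members relative to it stayed the same to 2 decimals. Within each array miR-335-5p minus the median of those 38 names was 0 on each skin array, where both lay at the floor, and 0.20, -0.25 and -0.14 on the wound arrays. That difference between groups, -0.07, did not exceed the spread (exact two-sided permutation test, p = 0.7). With the skin side fixed at 0 by the floor, it compares only wound levels of different probes. It cannot weigh the 2 changes against each other and does not show that they act alike. The 5 tested miRNAs whose centred log2 profiles over the 6 arrays were closest to that of miR-335-5p were miR-434-5p, miR-495-3p, miR-154-5p, miR-409-3p and miR-411-3p, at root mean square distances of 0.10 to 0.18. All 5 are names of the Dlk1-Dio3 list, and 4 of them, like miR-335-5p, lay at the floor on every skin array. The likeness is a description over 6 arrays with the same 3 skin and 3 wound preparations. Another imprinted miRNA cluster lies in an intron of Sfmbt2. Its list was made by family name and not by position, so some names may lie elsewhere. Of 8 tested names on it, 0 were called by limma and 0 had an unadjusted p under 0.05 (median difference -0.01). Their SEs were 0.32 to 0.84, against 0.13 for miR-335-5p, so a change in them could more easily be missed.

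**Figure D2:**
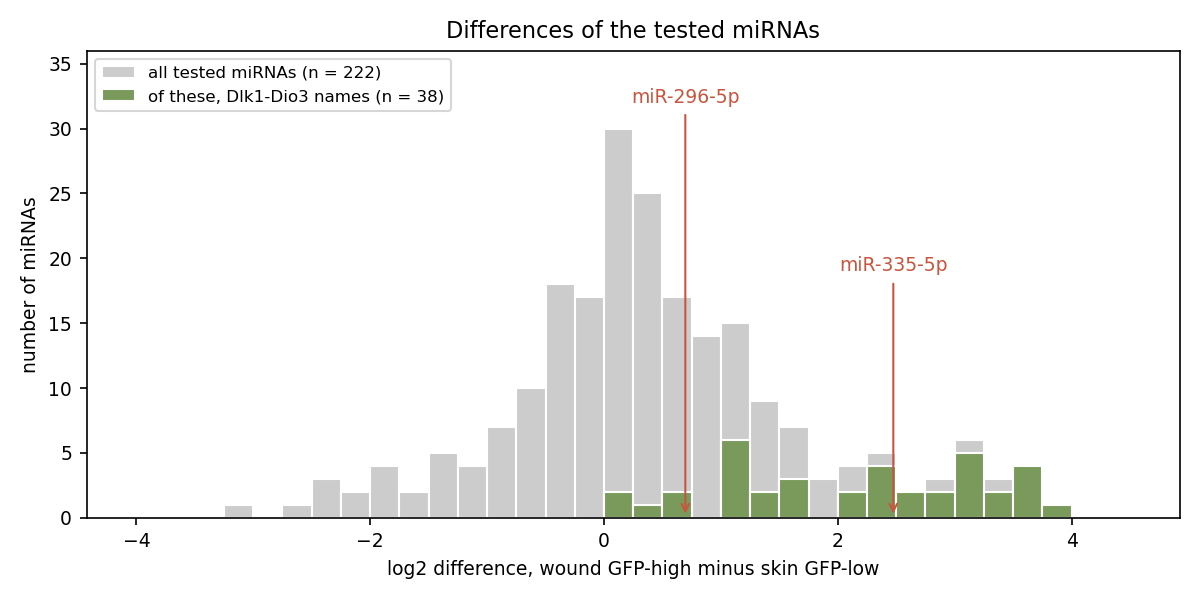
Histogram of the log2 difference between wound and skin cells (horizontal axis) over the 222 tested miRNAs (vertical axis, number of miRNAs), with the 38 Dlk1-Dio3 names in green and the 2 tested members marked by arrows. miR-335-5p at 2.47 lies among the Dlk1-Dio3 names, and miR-296-5p at 0.70 lies near the bulk of the tested miRNAs, whose median is 0.38.

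miR-296-5p, from the Gnas/Nespas locus and known for a role in blood vessel growth, differed little. Its processed signal was 28.9, 35.2 and 32.7 units on skin 1, 2 and 5, and 42.8, 46.5 and 38.0 on wound 3, 4 and 6. The wound values lay above the skin values without overlap, with means of 32.3 ± 3.17 and 42.4 ± 4.28 units (SD, n = 3 each). The scanner software called it detected on all 6 arrays, with 26 of 60 skin spots and 54 of 60 wound spots well above background.

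After scaling, miR-296-5p lay at the floor on skin 1 and 5 and at -5.14 on skin 2, and at -4.20, -4.56 and -4.90 on the wound arrays. The log2 difference was 0.70 (SE 0.19, adjusted p = 0.026 in limma), a 1.62-fold rise with a 95% interval of 0.20 to 1.19 on the log2 scale. With 2 of 3 skin values at the floor, the floor compresses the fold and the SE understates the spread in skin. The difference of 0.70 was also the largest over the 5 scalings, the smallest being 0.11, so the net bias is unknown. miR-296-5p was tested because of its wound arrays, the brighter group, and with no filter the call was lost (adjusted p = 0.148). The median of all tested miRNAs was 0.38 with this scaling and -0.19 to 0.38 over the 5 scalings. Relative to each scaling's own median, miR-296-5p differed by 0.11 to 0.43. The call held under 2 of the 5 scalings and was lost without any 1 of skin 1, skin 2, skin 5 or wound 4 (adjusted p = 0.072, 0.053, 0.08 and 0.076), while the difference itself was 0.67, 0.75, 0.67 and 0.70. Relative to the 156 miRNAs well above background on all arrays, the level was -2.62, -2.58 and -2.68 in skin and -1.96, -2.48 and -2.58 in wound, where the highest skin and the lowest wound value met. This difference of 0.29 fell to 0.10 without wound 3 (exact two-sided permutation test on all arrays, p = 0.1, the smallest possible).

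After scaling, the 2 probes of miR-296-5p gave log2 differences of the same sign. Probe A_54_P4376 differed by 0.83 (SE 0.18, adjusted p = 0.0067 in limma over 402 probes) and A_54_P2422 by 0.55 (SE 0.20, adjusted p = 0.05049). In processed signal only A_54_P4376 separated the groups. It read 28.7, 34.0 and 29.7 units on skin 1, 2 and 5 and 46.6, 49.3 and 42.3 on wound 3, 4 and 6. A_54_P2422 read 29.1, 36.4 and 35.7 in skin and 39.1, 43.7 and 33.6 in wound, with wound 6 below skin 2 and 5. Relative to the median of the 38 tested Dlk1-Dio3 names, miR-296-5p was 0, 0.16 and 0 on skin 1, 2 and 5 and -1.44, -1.80 and -2.14 on the wound arrays, a difference of -1.85 (exact two-sided permutation test, p = 0.1, the smallest possible). On skin 1 and 5 both lay at the floor, so this value rests on the wound arrays, where it sets different probes against each other. Of those 38 names 4 had a smaller log2 difference than miR-296-5p. The 5 closest profiles to miR-296-5p were those of miR-345-5p, miR-2142_v14.0, miR-433-3p, miR-455-5p and miR-543-3p, at distances of 0.16 to 0.20, of which 2 are Dlk1-Dio3 names.

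The other 2 names of the Gnas/Nespas locus gave no measurable signal. miR-296-3p, the other arm, read -8.19 to -6.04 units in skin and -8.82 to -4.94 in wound. miR-298-5p read 1.16 to 4.52 in skin and 1.38 to 2.91 in wound. For both, 0 of 60 spots in either group were well above background, and the scanner software called neither detected on any array.

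At the H19 and Igf2 loci 1 name stood out by detection. miR-675-3p, cut from H19, read -3.35, -3.20 and -3.44 units on skin 1, 2 and 5, and 11.4, 17.8 and 11.7 on wound 3, 4 and 6. The groups did not overlap, with means of -3.33 ± 0.13 and 13.7 ± 3.62 units (SD, n = 3 each; exact two-sided permutation test, p = 0.1, the smallest possible). The scanner software called it detected on all 3 wound arrays and no skin array, a pattern found for 4.49% of the 690 names and for 1 of the 9 members. Of its 20 spots, 3, 8 and 0 were well above background on wound 3, 4 and 6. By the stricter share of a probe's spots it was well above background on wound 4 only, and it was not tested.

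Here too 2 of the 4 probes carried the signal. A_54_P1793 and A_54_P1794 read 22.9 ± 7.58 and 28.7 ± 9.81 units on wound 3, 35.4 ± 4.36 and 40.9 ± 6.61 on wound 4 and 27.0 ± 4.10 and 28.6 ± 2.12 on wound 6 (SD over 5 spots each). On the skin arrays these probes lay between -2.46 and 1.52. The other 2 probes, A_54_P1791 and A_54_P1792, lay between -8.56 and 3.53 on all 6 arrays. The mean over the 4 probes stayed under the floor on every array, so the scaled values give a difference of 0. In an alternative added after the data were seen, with the scanner software's total signals and all 690 names (17.0% called), miR-675-3p differed by 1.71 (adjusted p = 0.0026 in limma), but all 3 skin values sat at a floor there, so that p is too small and no fold is given.

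miR-675-5p, from the 5p side of the same hairpin, read -9.90 to -3.70 units in skin and -8.24 to -6.12 in wound, with 0 of 60 spots well above background in either group. The arm that gave signal thus differed between precursors: 5p for miR-335 and miR-296, 3p for miR-675, and both for miR-483. Probes of different arms are not comparable in brightness, and detection rests on brightness too. Even probes of the same mature arm differed widely, for miR-335-5p and for miR-675-3p. The arms that gave signal therefore do not show which arm was more abundant.

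miR-483-3p, from Igf2 and known to slow the division of epithelial cells at wounds, read 17.9, 27.5 and 60.1 units on skin 1, 2 and 5 and 16.8, 18.4 and 9.18 on wound 3, 4 and 6. The groups overlapped, and the difference of -20.4 units rested on skin 5 (exact two-sided permutation test, p = 0.2). On skin 5, 19 of its 20 spots were well above background, against 4 of 20 on skin 2 and 0 on the other 4 arrays. Both probes were brightest there, at 41.1 ± 7.67 and 79.1 ± 5.57 units (SD over 10 spots each).

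miR-483-5p read 25.6, 12.4 and 25.7 units on skin 1, 2 and 5 and 17.9, 39.8 and 28.9 on wound 3, 4 and 6. The groups overlapped and differed by 7.61 units (exact two-sided permutation test, p = 0.4). Its highest value was on wound 4, with 13 of 20 spots well above background, while the highest value of miR-483-3p was on skin 5, so the 2 arms did not peak on the same array. Neither arm passed the filter for testing.

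**Figure D3:**
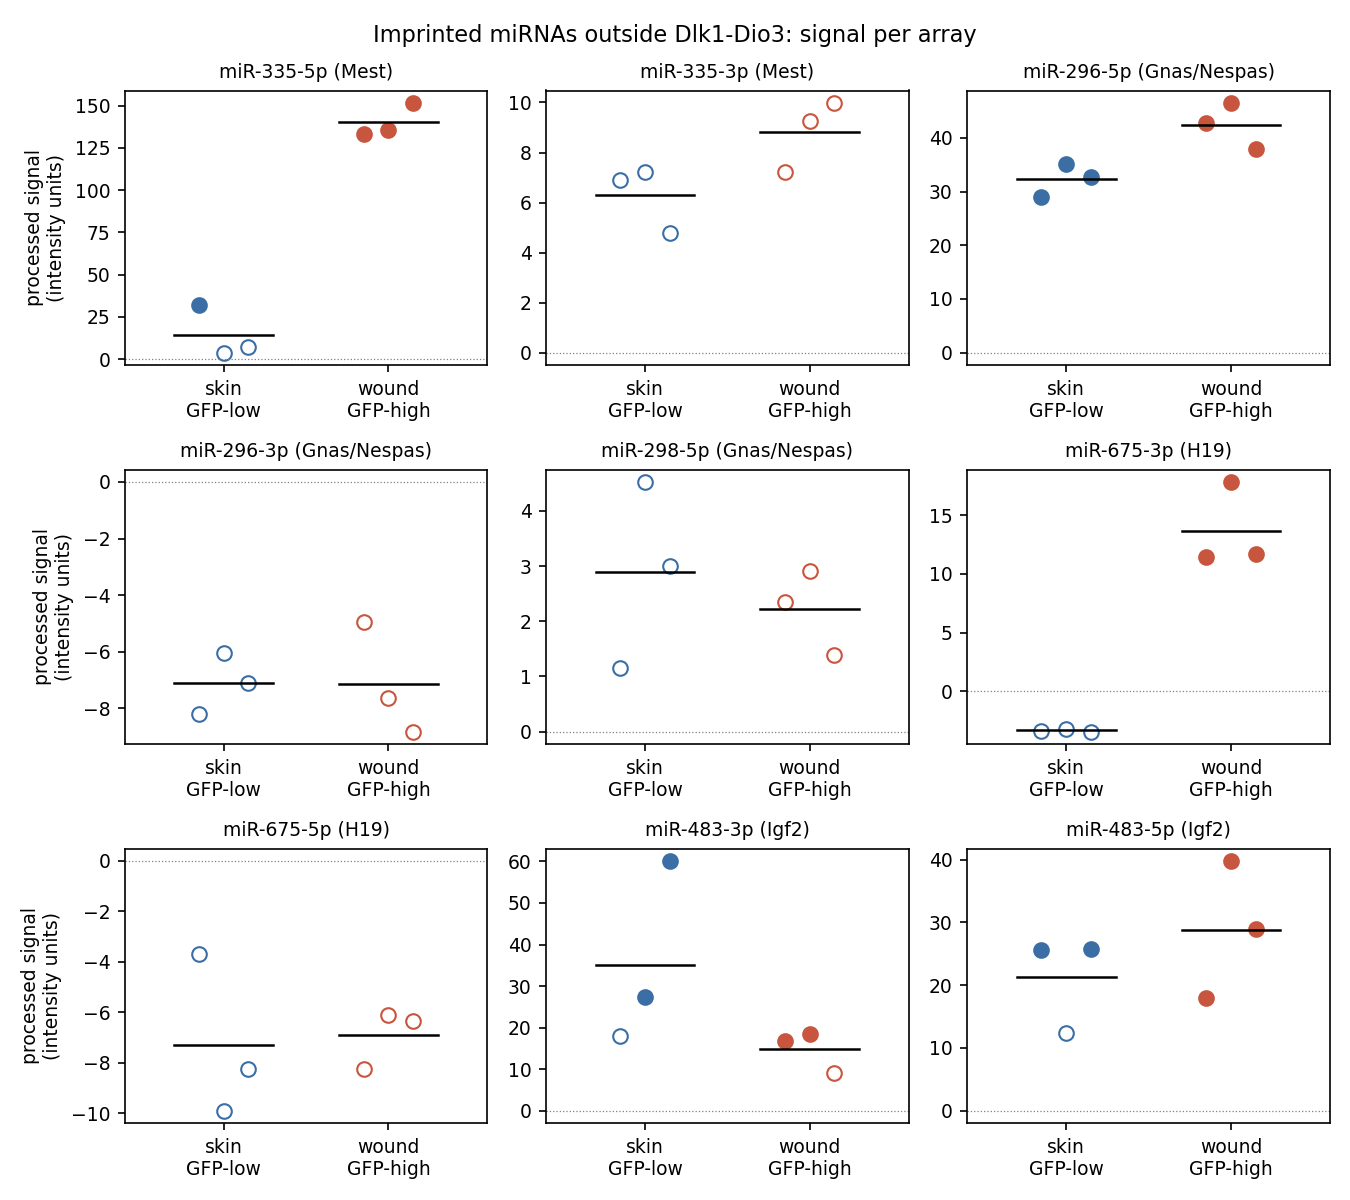
Processed signal in intensity units (vertical axes, a scale of its own for each miRNA) of the 9 members on the 3 skin arrays (blue) and 3 wound arrays (red); lines are group means, and filled points mark arrays where the scanner software called the miRNA detected. miR-335-5p and miR-675-3p separate the groups widely, miR-296-5p by a smaller step, and miR-296-3p, miR-298-5p and miR-675-5p lie around or below 0 in both groups.

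**Figure D4:**
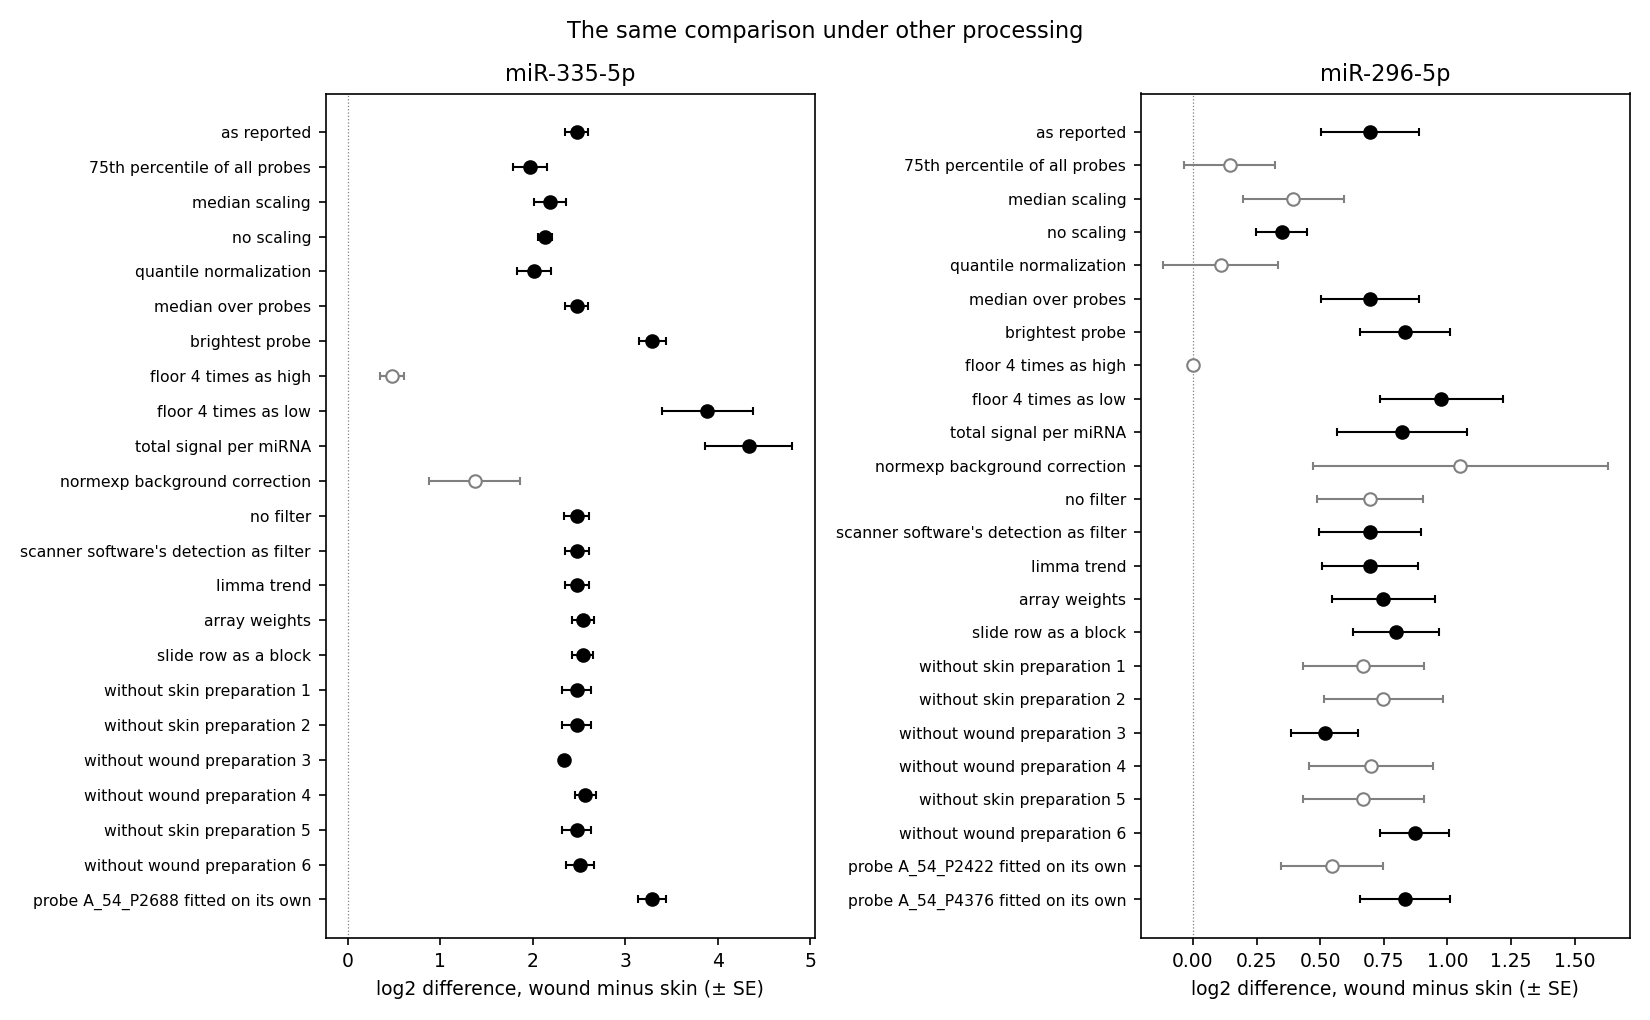
Log2 difference between wound and skin cells with its SE (horizontal axis) for miR-335-5p and miR-296-5p as reported and under each alternative that used the scanner files; filled points have an adjusted p under 0.05 in limma. miR-335-5p is open only with the higher floor (0.47) and with normexp (1.37), while miR-296-5p is open under 3 of the 4 other scalings and without any 1 of 4 preparations, among others.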

How the data were processed

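Per the file headers, Agilent Feature Extraction 10.7.3.1 quantified the 6 single-channel Cy3 arrays, all on 1 slide. The intensity values in the deposited files are linear and not normalized between arrays: a background-subtracted processed signal, median and local background signals, total signals per probe and per miRNA, and flags. A table of log2 values by the authors was deposited too, without a stated method in the labels or headers used here. Spots with outlier flags were left out, and 0 spots were saturated. Spots were averaged per probe, scaled, and probes averaged per miRNA on the linear scale. Scaled values below a common floor, the 6 arrays' median of their dimmest well-above-background signal, were set to it before log2, which shrinks the differences of dim miRNAs. Groups were compared with limma 3.58.1 (lmFit, eBayes, two-sided, R 4.3.3), adjusted over 222 tested miRNAs at 0.05; the fitting script was tested on simulated data. Permutation tests used scipy 1.17.1, figures matplotlib 3.10.9. Alternatives covered scaling, background, total signals, probe summary, floor, filter, variance model, slide row, left-out arrays and the authors' table. Named miRNAs are the members, names with a member's seed, the 5 closest profiles of each tested member, and miR-127-3p. miR-31-5p was named after the data were seen. Members, lists and rules were chosen with earlier results of these data known. The number of arrays limits the precision.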

Additional observations from a re-analysis of the deposited data

How the results depend on the processing

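No paired analysis was made. The array titles number the arrays in a single run over both groups, so the numbers cannot show whether skin and wound preparations were paired. Leaving out 1 array in turn gave 2.34 to 2.57 for the log2 difference of miR-335-5p and 1.92 to 2.23 for its difference relative to the 156 miRNAs well above background on all arrays. For miR-296-5p these were 0.52 to 0.87 and 0.10 to 0.41. Members called then numbered 1 to 2 and miRNAs called 128 to 142, against 144 with all arrays. The call of miR-296-5p was lost with the 75th percentile of all probes (0.14), the median (0.39), quantile normalization (0.11), no filter (0.70) and the authors' table matched by its values (0.53), with 1 member called in each, and with probe A_54_P2422 alone (0.55). With a floor 4 times as high its difference was 0 and that of miR-335-5p 0.47, with 0 members and 78 miRNAs called by limma (90 at an unadjusted p under 0.05). With normexp they were 1.05 and 1.37, with 0 members and 23 miRNAs called (55 unadjusted); it used the median signal, which at spots not well above background was 155 to 193 units against a local background of 49.0 to 56.0. The relative difference of miR-335-5p was 0.38 with normexp, 0.068 with the higher and 3.48 with the lower floor, 4.10 with total signals and 2.86 with the brightest probe; that of miR-296-5p turned to -0.41 with the higher floor. Only miRNAs well above background on all arrays left no member tested. The authors' table numbers its columns unlike the array titles: set against the scanner files, 0 of 6 columns matched the array of that number. Taken by number, it gave -0.58 for miR-296-5p and -1.04 for miR-335-5p (relative: -0.63 and -1.09), with 0 members and 0 miRNAs called by limma (1 unadjusted). Its scale is log2 total signal minus a constant per column, and how the constant was chosen is unknown; the column medians lie between -12.53 and -11.76. The table matched by values, the scanner software's detection as filter, single probes, total signals without a filter and the wider Dlk1-Dio3 list were added after the data were seen. Each cause was not tested.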
